A study of Mus musculus with 18 samples.

Results

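The genes described here are 42 components of ribosome biogenesis and RNA polymerase I, of 16545 genes measured by RNA sequencing in mouse splenic B cells. They are a named list, chosen with earlier results of these data known and matched by NCBI gene ID. All 42 were in the table and above 0 FPKM (read fragments scaled to transcript length and to the total of the library) in every library. B cells were enriched from spleen, sorted, and stimulated in culture with lipopolysaccharide (LPS), a component of the outer membrane of bacteria that drives B cells to divide. RNA was taken at 0 h, 24 h and 48 h (D0, D1 and D2 of the labels) from 3 control (CON) and 3 *Zbtb24* B-CKO mice, which makes 18 libraries, 1 per mouse and time point. By the published methods, both genotypes carried a B cell Cre allele on the C57BL/6 background. Controls had intact *Zbtb24* and B-CKO mice were *Zbtb24* loxp/loxp, from which Cre cuts out exon 2, where the protein begins. The deletion is thus restricted to cells that express this Cre and removes 1 exon only, and fragments from the other exons are still counted. The LPS dose and the age and sex of the mice used for these libraries are not given in the sources used here.

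A ribosome begins in the nucleolus, where RNA polymerase I transcribes one long precursor that holds most of the ribosomal RNA. Small nucleolar RNPs modify this precursor, box C/D particles by methylation and box H/ACA particles by pseudouridylation, while assembly factors, GTPases and helicases cut and fold it into the small and the large subunit. Cells that leave rest to grow and divide, as B cells do after mitogens, are known to raise this machinery early, and the transcription factor MYC, which binds the E-box CACGTG, is a well known activator of its genes.

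The members moved together over time, as given below, and their promoters were therefore searched for short motifs. RefSeq windows (GRCm38.p6) from 250 bases before to 50 bases after a transcript start were at hand for 37 of the 42 members. *Fbl*, *Npm1*, *Rrp12*, *Bop1* and *Rrs1* had no window in the table. The E-box CACGTG, which reads the same on both strands, lay in at least 1 window of 7 of 37 members (18.9%), of 10.5% of the 13151 measured genes with a window and of 8.09% of all 27025 genes with a window. The related letters CACGCG, on either strand, lay in 15 of 37 members (40.5%) and in 17.3% of measured genes. Of 4 further motifs, searched on both strands, CTTCCGG lay in 14 members (37.8%, against 16.4% of measured genes) and GGGCGG in 31 (83.8%, against 60.7%). CCAAT lay in 12 members (32.4%, against 42.4%) and TATAAA in 2 (5.41%, against 10.8%). In all 8 motifs were looked at, and 2 longer ones, found in at most 1 member, are not reported here. The motifs and the stretches printed below were chosen after matches had been seen, and no test was made. Among 115 other ribosome biogenesis genes with a window the shares were 19.1% for CACGTG, 27.8% for CACGCG, 40.0% for CTTCCGG, 60.9% for GGGCGG, 37.4% for CCAAT and 6.09% for TATAAA. These are matches of letters and not measured binding sites, and some genes have more than 1 window. The stretches below show 3 members with an E-box or a CACGCG match upstream of the start. Each is written 5′ to 3′ on the strand of the gene, with the E-box, and the letters CACGCG on either strand, in capitals. In *Mybbp1a* matches on both strands overlap, and an E-box also lies after its start, outside the stretch shown.
*Nop2* (chr6:125131753-125131832, + strand, 130 to 51 bases before the start): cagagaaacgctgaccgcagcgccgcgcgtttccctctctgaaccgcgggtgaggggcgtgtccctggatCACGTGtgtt
*Rrn3* (chr16:13780469-13780668, + strand, 230 to 31 bases before the start): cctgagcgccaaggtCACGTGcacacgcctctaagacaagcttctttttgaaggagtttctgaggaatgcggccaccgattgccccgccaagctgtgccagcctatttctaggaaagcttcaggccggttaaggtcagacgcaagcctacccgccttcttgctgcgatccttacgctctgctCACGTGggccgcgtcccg
*Mybbp1a* (chr11:72441197-72441276, + strand, 130 to 51 bases before the start): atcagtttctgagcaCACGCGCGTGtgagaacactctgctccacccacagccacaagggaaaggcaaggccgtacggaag
*Rrn3* holds 2 E-boxes and *Nop2* holds 1. The other members with an E-box were *Utp4*, *Utp20*, *Pes1*, *Mybbp1a* and *Wdr43*. Whether a motif goes with the size of the rise was not tested.

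*Zbtb24* read less in every B-CKO library than in every control library at each time, although the difference did not pass the test over all genes. It read 49.6, 49.6 and 37.1 FPKM in control and 14.3, 10.5 and 12.6 FPKM in B-CKO cells at 0 h, and the means differed by 72.5% at 0 h, 38.0% at 24 h and 31.4% at 48 h (limma adjusted p = 0.12, 0.059 and 0.27). The 10 B cell markers summed to between 4653 and 6208 FPKM at 0 h and between 2232 and 2913 FPKM later, and 8 were called lower in the first day in control and 9 in B-CKO cells. The 6 plasma cell markers summed to between 404 and 450 FPKM at 24 h and between 636 and 944 FPKM at 48 h, and in the second day, when the members fell, 5 were called higher and 0 lower in control and 4 higher and 1 lower in B-CKO cells (median log2 change 0.99 and 1.03). The part of these shifts in the results on the members was not tested. The 8 T cell markers summed to at most 16.3 FPKM at 0 h and 3.03 FPKM later. The 0 h libraries stood apart. The 16 immediate early genes summed to between 4691 and 6657 FPKM there, against 295 to 505 FPKM later. The median SD between replicates was 0.158 to 0.169 (log2) at 0 h and 0.0545 to 0.0852 later, and all comparisons with 0 h rest on these libraries. In bulk libraries a smaller share of cells that express a gene and less of its RNA per cell cannot be told apart, and FPKM is relative to all RNA in the library.

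The whole group rose in the first day and fell in the second. The summed FPKM of the 42 members was 1732 to 1943 in the 6 libraries at 0 h, 6220 to 6871 at 24 h and 3760 to 4248 at 48 h, which is 0.370 to 0.423%, 1.20 to 1.31% and 0.667 to 0.806% of all FPKM in a library. The ranges of the 3 times did not overlap. From 0 h to 24 h all 42 members passed the test as higher in control cells (limma on log2(FPKM + 1), adjusted p from 5.2e-06 to 0.018), where 26.7% of the 15531 genes tested were called higher, and all 42 also in B-CKO cells (adjusted p from 2.2e-06 to 0.0035), where 27.5% of genes were called higher. The median log2 change of the members was 1.68 in control and 1.70 in B-CKO cells, or 3.20-fold and 3.24-fold, and that of all genes tested was -0.02 in both. On simulated data this test called more unchanged genes than its nominal rate in each comparison, most of all in those with 0 h, although the simulation drew on SDs of 3 libraries, which may itself add to the excess. The shares of all genes called are therefore approximate. From 24 h to 48 h, 41 of 42 members passed the test as lower in each genotype, where 24.8% of genes were called lower in control and 24% in B-CKO cells. The median log2 change was -0.80 in control and -0.92 in B-CKO cells, or 0.575-fold and 0.529-fold.

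**Figure D1:**
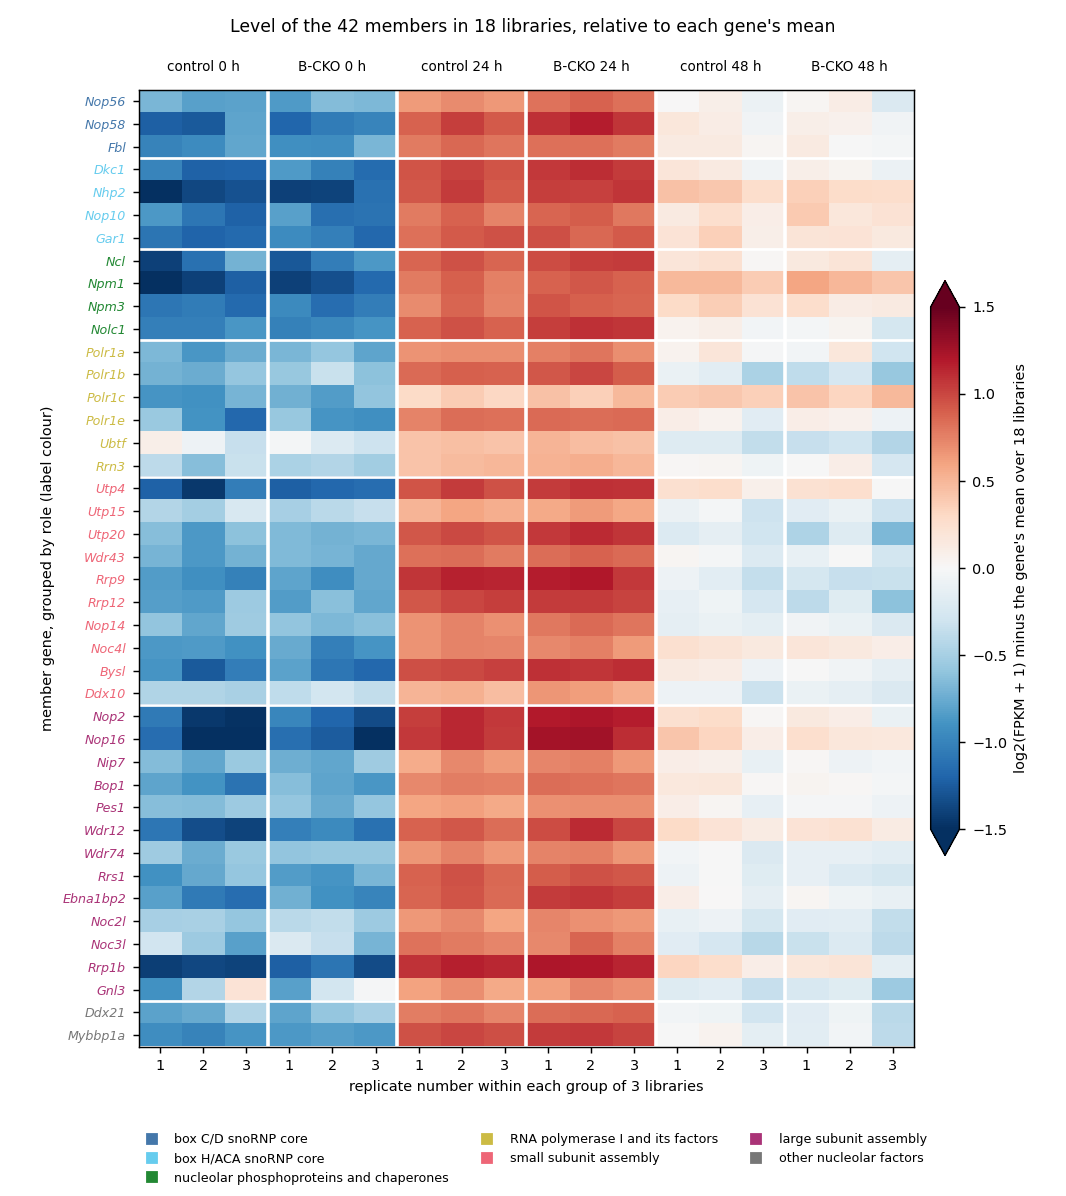
Level of each of the 42 members (rows, grouped by role through label colour) in each of the 18 libraries (columns), as log2(FPKM + 1) minus the gene's mean over the 18 libraries. Members were low at 0 h, highest at 24 h and between these at 48 h, except for genes such as *Polr1c*, which stayed at its 24 h level, and *Ubtf*, which ended at its 0 h level.

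The core proteins of the small nucleolar RNPs rose by 1.43 to 2.36 on the log2 scale in control cells, with all 7 called. Fibrillarin (*Fbl*), the methyltransferase of the box C/D particle, was the most abundant of these at 24 h, FPKM being a level per transcript length. *Fbl* was 121, 125 and 140 FPKM in control and 127, 126 and 151 FPKM in B-CKO cells at 0 h, 416, 439 and 422 against 428, 429 and 416 at 24 h, and 265, 266 and 247 against 266, 241 and 236 at 48 h. The libraries of the 2 genotypes overlapped at each time. *Nop58*, a scaffold of the same particle, rose most of the box C/D proteins, from 43.2, 42.5 and 58.9 FPKM to 190.2, 212 and 194 FPKM in control cells (log2 change 2.04 ± 0.13 SE) and from 44.6, 49.1 and 51.3 FPKM to 220.3, 233 and 217 FPKM in B-CKO cells (2.19 ± 0.066), and read 116, 111 and 99.0 FPKM against 109, 107.0 and 98.9 FPKM at 48 h. Its partner *Nop56* rose least, by 1.43 ± 0.057 in control cells. Among the box H/ACA proteins, *Nhp2* rose most, from 35.3, 38.5 and 40.1 FPKM to 193, 210.4 and 192 FPKM in control cells (2.36 ± 0.068), and from 37.7, 38.0 and 46.1 FPKM to 208, 207 and 214 FPKM in B-CKO cells. At 48 h it read 138, 134 and 122 FPKM in control and 130.1, 123 and 122 FPKM in B-CKO cells. *Nop10*, the smallest protein of the particle, was both the most abundant at 24 h, at 218, 233 and 211 FPKM in control and 231, 236 and 218 FPKM in B-CKO cells, and the one that rose least (1.86 ± 0.10 in control cells). The catalytic pseudouridine synthase *Dkc1* and the fourth protein *Gar1* rose by 2.10 and 2.05.

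The nucleolar phosphoproteins and chaperones held the most abundant member. Nucleophosmin (*Npm1*, chr11:33152498-33164142), a histone and ribosomal protein chaperone, was 382, 406 and 460 FPKM in control cells at 0 h, 1847, 2007 and 1812 FPKM at 24 h and 1504, 1507 and 1405 FPKM at 48 h. In B-CKO cells it was 408, 430.1 and 478 FPKM, then 1990, 2059 and 1989 FPKM, then 1619, 1524 and 1432 FPKM. Both genotypes rose 4.54-fold and 4.59-fold and then kept 71.7% and 69.0% of that rise at 48 h, more than any member but *Polr1c*. The related chaperone *Npm3* rose least of this group but almost as much, from 41.99, 42.9 and 39.4 FPKM to 148, 166 and 151 FPKM in control cells (1.88 ± 0.065). Nucleolin (*Ncl*), which binds the precursor RNA, and *Nolc1*, which binds the RNPs and carries them between nucleolus and Cajal bodies, rose by 1.98 and 1.88.

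RNA polymerase I and its own factors rose less than the other roles. All 6 passed the test in both genotypes, with a median log2 change of 1.31 in control and 1.29 in B-CKO cells, against medians of 1.62 to 2.07 in the other role groups in control cells. *Polr1e*, a subunit of the polymerase, rose most of the 6 but was the least abundant member at 0 h and at 24 h. It read 7.22, 5.51 and 4.36 FPKM in control cells at 0 h and 19.3, 20.7 and 20.5 FPKM at 24 h (1.68 ± 0.16). *Ubtf* (chr11:102304560-102323649), which binds ribosomal DNA and opens it for transcription, was the most abundant of the 6 at 24 h and rose least of all 42 members (0.55 ± 0.11 in control and 0.65 ± 0.078 in B-CKO cells, adjusted p = 0.0060 and 0.00047). It was 67.3, 59.9 and 49.3 FPKM in control cells at 0 h, 85.5, 86.7 and 85.2 FPKM at 24 h and 55.0, 55.2 and 48.6 FPKM at 48 h, and in B-CKO cells 61.8, 54.8 and 50.7 FPKM, then 90.3, 87.1 and 86.1 FPKM, then 49.4, 51.1 and 46.3 FPKM. It was the one member whose mean at 48 h was below that at 0 h, by factors of 0.90 and 0.88, with overlapping libraries. *Rrn3*, which makes the polymerase competent to start, rose by 0.92 ± 0.091, from 17.96, 15.0 and 18.7 FPKM to 32.5, 33.6 and 34.1 FPKM in control cells. *Polr1c* (chr17:46243920-46248045) is a subunit that polymerase I shares with polymerase III. It rose from 30.2, 29.7 and 34.8 FPKM to 69.6, 74.5 and 70.9 FPKM in control cells and from 34.2, 31.4 and 37.4 FPKM to 77.5, 73.2 and 80.3 FPKM in B-CKO cells. At 48 h it read 74.3, 75.5 and 73.2 FPKM in control and 77.2, 71.2 and 80.2 FPKM in B-CKO cells. Its libraries at 24 h and 48 h overlapped, and it was the one member not called lower in the second day (0.05 ± 0.034, adjusted p = 0.26, and -0.02 ± 0.055, adjusted p = 0.84).

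**Figure D2:**
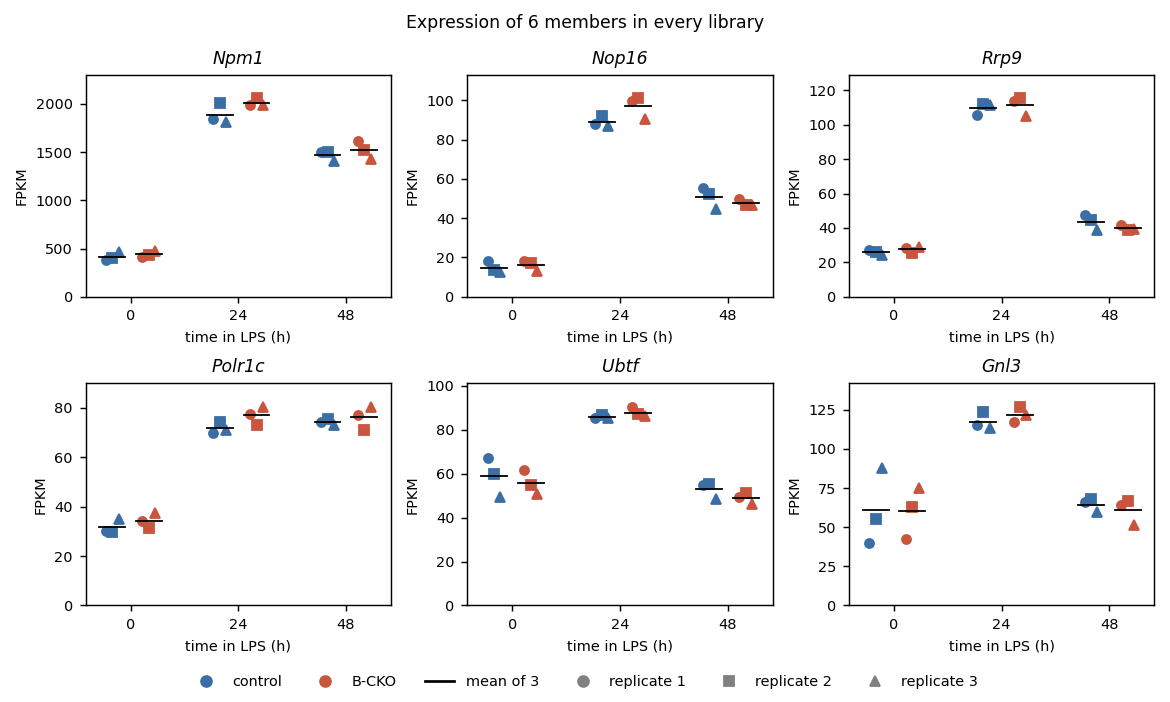
FPKM of 6 members (one panel each, axis from 0) in every library against time in LPS, with control in blue, B-CKO in red, a symbol for each replicate number and a black line at the mean of 3. *Npm1*, *Nop16* and *Rrp9* rose and then fell to differing extents, *Polr1c* stayed at its 24 h level, and at 0 h the control libraries of *Gnl3* ranged from 39.8 to 87.7 FPKM.

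The 10 factors of small subunit assembly rose by 0.94 to 2.22 in control cells, all called. *Utp4*, part of the particle that first binds the precursor, rose most, from 15.1, 12.7 and 17.3 FPKM to 71.1, 76.7 and 71.6 FPKM in control cells, and *Utp15* of the same particle least, from 15.4, 14.6 and 17.8 FPKM to 30.6, 32.5 and 31.5 FPKM. The U3 snoRNP protein *Rrp9* was the most abundant of the 10 at 24 h, at 106, 112 and 112 FPKM in control and 114, 115 and 105 FPKM in B-CKO cells. It then showed the deepest fall of all members in control cells, to 47.3, 44.7 and 38.7 FPKM (-1.32 ± 0.072), and reached 41.5, 39.0 and 39.3 FPKM in B-CKO cells (-1.46 ± 0.046). *Utp20* fell from 23.4, 24.3 and 23.6 FPKM to 10.04, 10.6 and 9.39 FPKM in control cells and from 25.6, 26.6 and 25.8 FPKM to 8.28, 10.2 and 6.97 FPKM in B-CKO cells, and *Rrp12* from 37.0, 38.9 and 39.7 FPKM to 17.2, 18.1 and 15.7 FPKM and from 40.3, 40.2 and 39.2 FPKM to 14.2, 16.5 and 12.0 FPKM. The group as a whole kept a median of 26.4% of its rise at 48 h in control and 20.5% in B-CKO cells.

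The 13 factors of large subunit assembly rose by 1.01 to 2.53 in control cells, all called, and kept a median of 40.9% of the rise in control and 32.1% in B-CKO cells. *Nop16* showed the largest rise of all members on the log2(FPKM + 1) scale, whereas by the ratio of mean FPKM *Rrp1b*, a gene of lower level, rose more in control cells (6.53-fold against 6.03-fold) and slightly less in B-CKO cells (5.93-fold against 5.99-fold). It was 18.2, 13.4 and 12.7 FPKM in control and 18.4, 16.9 and 13.3 FPKM in B-CKO cells at 0 h, 87.7, 92.1 and 87.1 against 99.9, 101.0 and 90.3 FPKM at 24 h, and 55.5, 52.3 and 44.7 against 49.5, 46.7 and 46.4 FPKM at 48 h (first day 2.53 ± 0.13 and 2.52 ± 0.12). On the log2 scale *Rrp1b* and the methyltransferase *Nop2* followed with 2.51 and 2.41. *Noc2l*, which escorts the precursor particle, was the most abundant of the 13 at 24 h, at 162, 171 and 156 FPKM in control and 172, 167 and 163 FPKM in B-CKO cells, and rose by 1.17 ± 0.056 in control cells. The GTPase nucleostemin, *Gnl3*, was the member with the largest SD relative to its mean among the 0 h libraries of each genotype. It read 39.8, 55.5 and 87.7 FPKM in control and 42.7, 62.7 and 74.8 FPKM in B-CKO cells, with replicate 1 lowest and replicate 3 highest in both genotypes, against 113 to 127 FPKM in the 6 libraries at 24 h. Its rise of 1.01 ± 0.27 (adjusted p = 0.018) was no longer called without control 0 h replicate 2 (adjusted p = 0.063) or control 24 h replicate 1 or 2 (0.052 and 0.060). Of the 2 remaining nucleolar factors, *Mybbp1a*, which binds MYB and sits in the nucleolus, rose by 1.92 ± 0.052, from 77.4, 73.4 and 80.0 FPKM to 288, 299 and 292 FPKM in control cells. The helicase *Ddx21* rose by 1.43 ± 0.10, from 60.1, 61.7 and 77.5 FPKM to 179, 184 and 175 FPKM.

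The order of the members was much the same in both genotypes. Across the 42 members the change from 0 h to 24 h in control and in B-CKO cells had a Pearson r of 0.99 and a Spearman rho of 0.98, and the change from 24 h to 48 h an r of 0.97 and a rho of 0.95. These describe genes that share libraries, and genes are not independent replicates. At 48 h, 38 of 42 members in control and 37 in B-CKO cells were above 0 h with no overlap of the libraries, against 29.1% and 29.2% of all genes. *Ubtf*, *Noc3l* and *Gnl3* overlapped in both genotypes, *Utp15* in control and *Polr1b* and *Utp20* in B-CKO cells. Over the members, a median of 40.1% of the rise was left at 48 h in control and 32.1% in B-CKO cells.

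**Figure D3:**
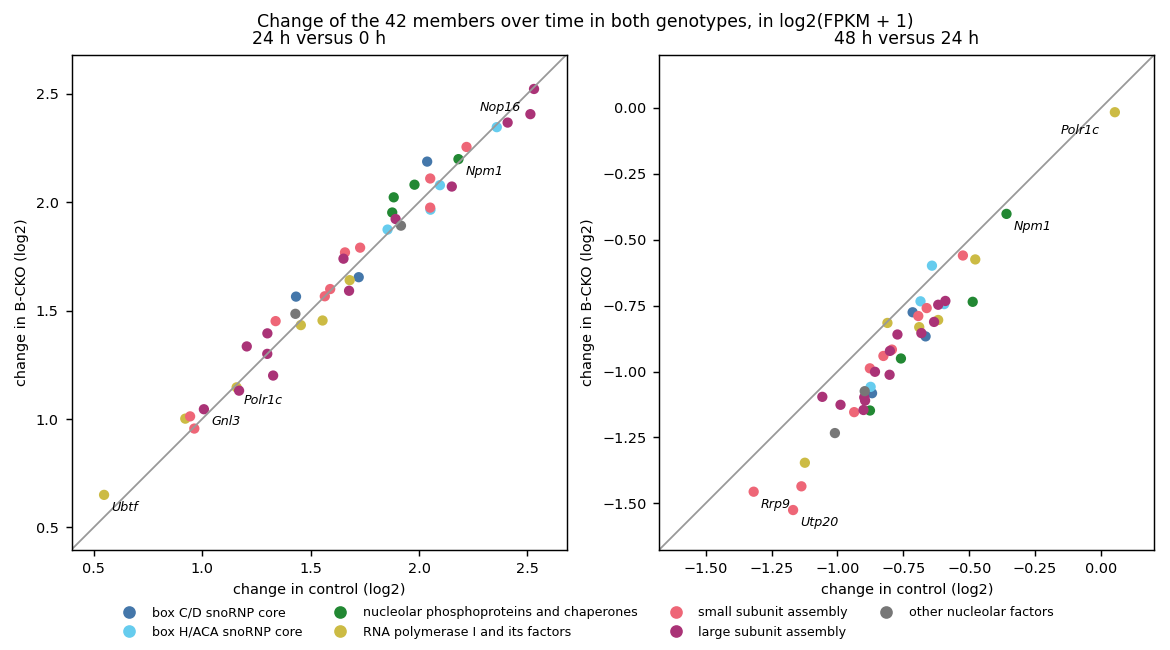
Change of each member in B-CKO cells against its change in control cells, in log2(FPKM + 1), for 24 h versus 0 h (left) and 48 h versus 24 h (right), with points coloured by role and a grey line of equal change. Points lie along the line in the first day, with 19 of 42 below it, and 41 of 42 lie below it in the second day.

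Other genes of the pathway, listed by role, moved with the members but less. The members and these lists were chosen with earlier results of these data known. The part of that choice in the difference of size was not tested. Of 137 further ribosome biogenesis genes, 120 were called higher and 3 lower from 0 h to 24 h in control cells (median log2 change 1.08), and 123 and 3 in B-CKO cells (1.14). From 24 h to 48 h, 122 were called lower and 1 higher in control cells (median -0.52), and 124 and 2 in B-CKO cells (-0.62). The 26 genes of ribosomal RNA trimming were all called higher in the first day in both genotypes, whereas of 9 further polymerase I genes 2 were called higher and 1 lower in control cells. The 11 subunits specific to or shared by RNA polymerase III had 7 called higher and 1 lower in control cells in the first day (median 0.55) and 8 called lower in the second (median -0.48), and of 8 RNA polymerase II subunits 6 were called higher and 2 lower in the first day (median 0.97) and 4 lower and 1 higher in the second (median -0.09).

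The question the design puts to these genes is whether loss of *Zbtb24* changes them, at rest or in LPS. At 0 h no member was called between the genotypes (limma, 0% of 15641 genes called, and 2.00% at an unadjusted p under 0.05), and none of the 42 had an unadjusted p under 0.05. The median log2 difference, B-CKO minus control, was 0.05, and 34 of 42 members were above 0, against 48.2% of all genes. Without control replicate 2 these became 0.02 and 23. Of the 137 further ribosome biogenesis genes 80 were above 0 (median 0.01). In the same comparison 8 of the 10 B cell markers were below 0 (median -0.04), and 8 of 10 myeloid markers (median 0.08) and all 5 erythroid markers (median 0.40) were above 0, with none called. The erythroid markers summed to 10.9 to 30.2 FPKM in control and 9.0 to 52.8 FPKM in B-CKO cells, which overlap, and the part of these markers was not tested. Only *Ddx10*, *Rrp1b* and *Mybbp1a* had all B-CKO libraries above all control libraries, where 1.92% of all genes did, and after rescaling to TPM only *Ddx10* of these remained and after median ratio scaling only *Rrp1b*. With the replicate number as a block, *Nop2* and *Bop1* were higher at an unadjusted p under 0.05, where 2.71% of genes were, and none was called. The mean log2 level of the members was higher in B-CKO than in control cells in each same-numbered pair (4.86 against 4.82, 4.84 against 4.72 and 4.84 against 4.82). In the fit without a block, the 95% intervals of the members ran from -0.77 to 0.80, both ends being those of *Gnl3*. The p-values and intervals given next are from that fit as well. The smallest p-values were those of *Wdr12* (0.23 ± 0.13 SE, 95% interval -0.08 to 0.54, adjusted p = 1), whose libraries read 7.24, 6.0 and 5.70 FPKM in control and 7.62, 8.01 and 7.05 FPKM in B-CKO cells, *Polr1b* (0.17 ± 0.11, 13.4, 13.1 and 14.9 against 14.9, 17.8 and 14.5 FPKM) and *Ddx10* (0.12 ± 0.080, 15.2, 15.2 and 14.9 against 16.0, 17.2 and 16.1 FPKM).

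At 24 h most members read slightly more in B-CKO cells, and none passed the test over all genes (adjusted p at least 0.092), where 0.0993% of 15104 genes were called. The median log2 difference was 0.08, a factor of 1.05, and 40 of 42 members were above 0, against 46.9% of all genes. The exceptions were *Fbl* (-0.0050) and *Noc4l* (-0.012). At an unadjusted p under 0.05, 20 members were higher and 0 lower, where 6.79% of genes were higher, and in 19 members all B-CKO libraries lay above all control libraries, where 8.43% of all genes did. By limma, *Nop56* had the smallest p, at 237, 250.2 and 241 FPKM in control and 269, 282 and 271 FPKM in B-CKO cells (0.18 ± 0.032, 95% interval 0.10 to 0.25, adjusted p = 0.092). *Nolc1* followed with 136, 143 and 136 against 151, 158 and 154 FPKM (0.16 ± 0.030, interval 0.09 to 0.23, adjusted p = 0.094), and *Ebna1bp2*, a large subunit factor, with 65.7, 69.2 and 64.4 against 73.9, 75.2 and 73.4 FPKM (0.16 ± 0.031, interval 0.08 to 0.23, adjusted p = 0.099). These 3 were called when genes averaging under 1 FPKM were left out of the test (limma adjusted p = 0.028, 0.037 and 0.043). In that setting 92 of 9711 genes were called higher and 296 lower, so calls rose over all genes as well. Over the 42 members the 95% intervals ran from -0.11 to 0.28. The count of 20 fell to 13 without control replicate 1 or control replicate 3, where 751 of 14940 and 913 of 14920 genes were higher. It fell to 2 in one fit of all 18 libraries, where 236 of 16545 genes were higher. Of the 137 further ribosome biogenesis genes none was called, and 117 were above 0, with a median of 0.06. The 8 RNA polymerase II subunits had a median of 0.08, with all 8 above 0. In the same comparison all 10 B cell markers were below 0 (median -0.14, lowest -1.02, 1 called lower), as were 13 of the 16 immediate early genes (median -0.17, 1 called lower) and 5 of the 6 plasma cell markers (median -0.13), and the part of these in the members' difference was not tested.

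At 48 h the sign turned. No member was called (adjusted p at least 0.66, with 0.0460% of 15210 genes called), and none had an unadjusted p under 0.05, where 7.71% of genes did. The median log2 difference was -0.07, and 6 of 42 members were above 0, against 45.2% of all genes. No member had libraries of the genotypes that did not overlap, where 11.1% of all genes did. In limma, the smallest p-values were those of *Rrp12* (-0.25 ± 0.11, 95% interval -0.51 to 0.01), of *Npm3* (-0.12 ± 0.058, 109.9, 116 and 104 against 108, 97.5 and 98.9 FPKM) and of *Bop1*, a partner of *Pes1* in large subunit assembly (-0.10 ± 0.051, 62.6, 62.9 and 56.5 against 57.6, 56.7 and 54.7 FPKM). The 95% intervals ran from -0.53 to 0.26. In both genotypes replicate 3 was the lowest, with a median deviation of the members from their group mean of -0.12 in control and -0.09 in B-CKO cells, against 0.03 to 0.06 in the other libraries. The mean log2 level of the members was lower in B-CKO than in control cells in each of the 3 same-numbered pairs (5.67 against 5.74, 5.67 against 5.75 and 5.51 against 5.58). Numbers were not taken to pair the genotypes at 48 h, where same-numbered libraries correlated at r = -0.04, 0.22 and 0.23. The pairs and the block fit that follows are therefore given as description only. With the replicate number as a block, 10 members were lower at an unadjusted p under 0.05, where 5.11% of genes were, and none was called. Without control replicate 3, 12 members were lower at an unadjusted p under 0.05, where 589 of 15068 genes were. Members above 0 numbered 3 without control replicate 3, 9 without control replicate 1 or 2, and 15 without B-CKO replicate 3, and the median was then -0.13, -0.03 or -0.05, and -0.02. Of the 137 further ribosome biogenesis genes 43 were above 0 (median -0.03), and none was called. In the same comparison 6 of the 10 B cell markers were above 0 (median 0.02), with 1 called lower. Of the 16 immediate early genes 10 were below 0 (median -0.11), as were 4 of the 6 plasma cell markers (median -0.10). So were 5 of the 8 myeloid markers tested (median -0.11), and none of these was called. The part of these markers in the members' difference was not tested.

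**Figure D4:**
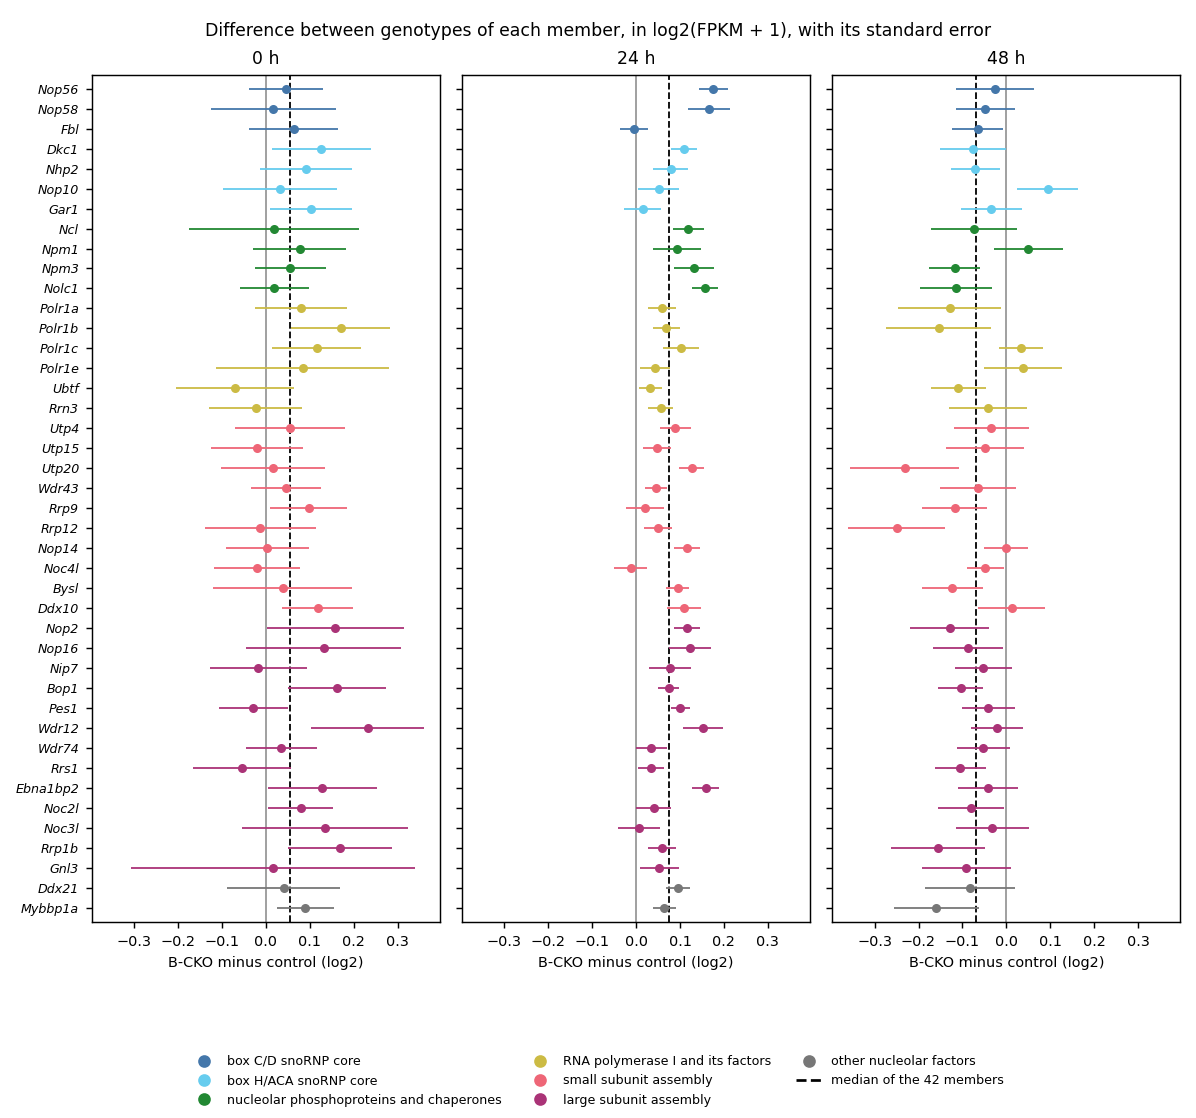
Difference between B-CKO and control cells of each of the 42 members in log2(FPKM + 1) at 0 h, 24 h and 48 h (panels), with bars of 1 standard error, colour by role and a dashed line at the median of the members. The medians are 0.05, 0.08 and -0.07, and the errors are smallest at 24 h.

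The changes over time were then compared between the genotypes. For the first day no member was called (0% of 16182 genes called, adjusted p = 1 for each member), and none had an unadjusted p under 0.05, where 2.89% of genes did. The median difference in change was 0.01, with 23 of 42 members above 0. It was 0.05 without control 0 h replicate 2, and -0.01 without control 24 h replicate 3. In the first of these fits 3 members were higher at an unadjusted p under 0.05, where 379 of 16100 genes were. The smallest p-values were those of *Nolc1* (0.14 ± 0.074), *Pes1* (0.13 ± 0.072) and *Nop56* (0.13 ± 0.086). *Pes1* rose from 44.7, 44.2 and 47.5 FPKM to 106, 108 and 105 FPKM in control and from 46.3, 41.1 and 46.3 FPKM to 113, 114 and 114 FPKM in B-CKO cells. For the second day no member was called either (0% of 15844 genes called, adjusted p at least 0.60), but 41 of 42 differences were below 0, where 49.3% of all genes were above 0, with a median of -0.14. The exception was *Nop10* (0.04 ± 0.091). At an unadjusted p under 0.05, 10 members fell further in B-CKO cells, where 3.38% of genes did. They were *Nop58*, *Npm3*, *Nolc1*, *Utp20*, *Rrp12*, *Bysl*, *Nop2*, *Bop1*, *Wdr12* and *Ebna1bp2*. In limma, the smallest p-values were those of *Npm3* (-0.25 ± 0.078, 95% interval -0.42 to -0.08), *Bop1* (-0.18 ± 0.056, interval -0.30 to -0.05) and *Nolc1* (-0.27 ± 0.094, interval -0.48 to -0.06), with adjusted p of 0.60, 0.60 and 0.61. *Bop1* read 92.7, 95.9 and 95.1 FPKM in control and 100.9, 99.8 and 98.1 FPKM in B-CKO cells at 24 h. *Nolc1* reached 75.7, 78.0 and 71.0 FPKM in control and 71.8, 75.3 and 61.0 FPKM in B-CKO cells at 48 h. Numbers were not taken to pair the genotypes at 24 h or 48 h, but a block of replicate numbers was also fitted. With it the count was 18, where 3.89% of genes were lower. With 1 intercept per labelled mouse it was 15, where 3.22% were. In one fit of all 18 libraries it was 4, where 196 of 16545 genes were lower. No member was called in any of these. The count of 10 rested on single libraries. It was 27 without control 48 h replicate 3, where 745 of 15772 genes were lower, and 17 without B-CKO 48 h replicate 2, where 965 of 15783 were. It was 4 without control 48 h replicate 2, 5 without control 48 h replicate 1, B-CKO 48 h replicate 3, control 24 h replicate 1 or B-CKO 24 h replicate 2, and 6 without control 24 h replicate 3. In the settings with 4 to 6 members, 362 to 540 genes were lower, of 15728 to 15775 tested. The differences at 24 h and in the second day share the 24 h libraries. In the second-day comparison all 10 B cell markers were above 0 (median 0.16, 0 called), as were 11 of the 16 immediate early genes (median 0.08, 0 called). The 137 further ribosome biogenesis genes had a median of -0.10, with 15 above 0 and none called. The 8 RNA polymerase II subunits had a median of -0.11, with all 8 below 0 and none called.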

How the data were processed

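Splenic B cell libraries of 3 control and 3 B-CKO mice at 3 time points were used. The deposited values are FPKM per gene. According to the study, the authors mapped reads to mm10 with bowtie2 and quantified genes with Cufflinks and RSEM. The submitters' processing notes also list BWA and DESeq2, without versions. No counts were used. Steps between low values were examined but gave no usable depth, so the fragments behind a value are unknown and no count test was run. The lowest group mean of a member was 5.70 FPKM. Genes were named through RefSeq, and 16512 of 16545 IDs matched. From the FPKM, log2(FPKM + 1) was tested with limma 3.58.1 in R 4.3.3 (trend, only the libraries compared, genes above 0 in any of them, Benjamini-Hochberg over all of these, threshold 0.05). A fold on this scale understates changes of low genes. The procedure was tested on simulated data, drawn with the SDs of each gene in each group. Such SDs of 3 libraries may add false calls of their own. The test recovered most changed genes, fewer of the smallest folds, and made more false calls than the nominal rate in every comparison, most in those with 0 h. Fold changes of group means, motif counts and figures were made in Python 3.11.15. The 42 members and the other lists were chosen with earlier results of these data known.

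Members named with values were those with the highest 24 h control mean and the largest and smallest first-day change in each role, the 3 smallest p-values of each genotype comparison, and the 3 largest and 3 lowest second-day changes in control cells. Members named for overlap, sign or an unadjusted p are outside this rule. A result on 1 further gene is not reported here. Each library is 1 mouse, and the labels give the same mouse number at the 3 times. Over 9997 genes, deviations from the group mean of same-numbered control and B-CKO libraries correlated at 0 h (r = 0.85, 0.47 and 0.79), less at 24 h (0.10, 0.20 and 0.09) and not in every pair at 48 h (-0.04, 0.22 and 0.23). So numbers were taken to pair the genotypes at 0 h only, and to pair times within a genotype by mouse. Alternatives tried were a pseudocount of 0.1, a floor of 1 FPKM on the mean, rescaling each library to the same sum (TPM) or by median ratios, a replicate block, one fit of 18 libraries, library weights by time, and leaving out libraries or replicate numbers.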

Additional observations from a re-analysis of the deposited data

How the results depend on the processing

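The time courses held under each alternative run: 40 to 42 members were called in the first day and 41 in the second. With a replicate number left out, 40 were called in control cells without replicate 2 (*Gnl3* and *Ubtf* lost) and 41 without replicate 1 (*Gnl3*), and 41 in B-CKO cells without replicate 2 (*Gnl3*). Rescaling to TPM gave a median first-day change of 1.56 in control and 1.58 in B-CKO cells, and median ratio scaling 1.75 and 1.77. For the genotype, no member was called at 0 h, 48 h or in either change under any alternative, and at 24 h 3 were called with a mean of at least 1 FPKM and none otherwise. With that floor 92 of 9711 genes were called higher and 296 lower at 24 h. With a replicate block 42, 41, 42 and 41 members were called in the time comparisons and 0 in each genotype comparison, and the block gave 18 in place of 10 members at an unadjusted p under 0.05 for the second-day change (15 with 1 intercept per mouse, added after seeing the data), 10 in place of 0 at 48 h and 2 in place of 0 at 0 h. Numbers were taken to pair the genotypes at 0 h only. The 20 members at 24 h became 2 to 22 under the other settings and 8 to 23 with libraries or numbers left out, and the 10 of the second-day change 4 to 18 and 1 to 27. Over all genes, of 9711 to 16545 tested, 236 to 1266 and 686 to 1050 were higher at 24 h. In the second-day change 196 to 616 and 340 to 965 were lower. These counts at an unadjusted p were varied after seeing the data. Members without overlap at 0 h numbered 1 after TPM (*Ddx10*) and 3 after median ratio scaling (*Bop1*, *Wdr12* and *Rrp1b*, of which only *Rrp1b* was among the 3 without it), and at 24 h 18 and 24. All of these were higher in B-CKO cells. Over all genes, 270 and 341 of 15641 were higher without overlap at 0 h. At 24 h 1049 and 1630 of 15104 were, against 1273 without rescaling. Over all alternatives no member that was called changed direction. For promoters, the share with CACGTG was 8.09% of all genes and 10.5% of measured genes. With 3 mice per group, an exact permutation test cannot go below a two-sided p of 0.10. What depth limits cannot be given, since the fragments per value are unknown.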
